A study of Bos taurus with 19 samples.

Results

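Leptin (LEP, ENSBTAG00000014911) and adiponectin (ADIPOQ, ENSBTAG00000019813) are the 2 genes described here, out of 25670 in the count files. They were chosen by identifier as the adipokines through which, in the study's question, early-life diet may reach the reproductive axis. The files list identifiers without symbols and none of them could be paired with a symbol in the gene table used here, so the symbols of these 2 genes rest on the rule that chose them. Subcutaneous adipose tissue was taken from the flank of 19 male Holstein Friesian calves slaughtered at 126 days of age, with 1 RNAseq library per animal. Of these, 10 had been on a high plane of nutrition (milk replacer with concentrate ad libitum, for which the labels of the samples give a growth of 1.08 kg/day and the series text 1.2) and 9 on a low plane (restricted milk replacer and concentrate, 0.5 kg/day). The diets were fed from the first weeks of life, and the labels give no other treatment. The study assigned 10 calves to each diet, so the low group here is not complete, for a reason not known here.

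Leptin and adiponectin are hormones secreted mainly by mature adipocytes. Leptin reports fat reserves and energy sufficiency to the hypothalamus through the leptin receptor, and its circulating level generally follows fat mass. Adiponectin, a protein with a collagen-like stalk and a C1q-like head that assembles into multimers, acts through ADIPOR1 and ADIPOR2 on fatty acid oxidation and insulin sensitivity, and its blood level tends to be lower, not higher, in obesity. The pair therefore asks whether 2 products of the same cell type move together when calves are fed at different rates.

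Reads counted on genes ranged from 7656100 to 17691547 per library, and the high libraries were 1.24 times the size of the low ones by geometric mean (two-sided exact permutation test over 92378 splits of the animals, p = 0.0247). Levels are given as CPM, the reads of a gene scaled to a common library size, and the scaling was TMM, the trimmed mean of M-values. Its factors ran from 0.829 to 0.987 for the high diet and from 1.05 to 1.15 for the low diet. On the first dimension of a multidimensional scaling plot of 500 genes, D64 (-0.149) and D75 (-0.153) of the high group fell on the low side, where the low mean was -0.288 ± 0.121 (SD, n = 9), and low animal D78 was the nearest to the high group (-0.0355). Values without these animals are given beside the results. Because the tissue was sequenced in bulk, fewer adipocytes and less transcript per adipocyte cannot be told apart in any value below, and markers of adipocytes, muscle and other cells were not analysed here because their identifiers have no paired symbols.

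LEP was lower on the low plane of nutrition. In the high animals its TMM-normalized CPM was 3.55 in the lowest animal, 90.6 at the median and 171 in the highest, and the mean was 75.99 ± 55.9 (SD, n = 10). In the low animals the lowest value was 0.176, the median 2.38 and the highest 8.89, with a mean of 3.27 ± 3.22 (SD, n = 9). Of the 10 high animals, 8 lay above every low animal, and 7 of the 9 low animals lay below every high animal. The overlap came from D64 (7.81) and D75 (3.55) of the high group and from D78 (8.89) and D79 (8.47) of the low group.

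The LEP difference was a log2 fold change of -4.58 (SE 0.699, low minus high, edgeR quasi-likelihood F test, FDR 0.000139), or 23.8-fold with an approximate 95% interval from 9.22 to 61.7. The medians of the diets differed 38.1-fold. On the mean of the log2 levels the difference was -4.12 (SE 0.709), and the exact permutation test over 92378 splits gave p = 0.000184. These levels have 0.5 CPM added, which raises the low values most and so makes this difference smaller in size. Only 9 of the 10064 genes tested had a more negative log2 fold change, whereas 143 had a smaller p-value. Without D64 and D75 the log2 fold change was -4.88 (SE 0.548), and without D64, D75 and D78 it was -5.21 (SE 0.547).

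The reads behind LEP were few in the low animals. Raw counts ran from 29 to 1820 in the high animals and from 2 to 84 in the low animals. The 2 reads of D69 have a 95% Poisson interval of 0.242 to 7.22 reads, and the 29 reads of D75 one of 19.4 to 41.6 (these intervals cover counting error only). LEP reached 5 CPM, the threshold for being tested, in 9 high and 2 low animals, so it entered the test through the high group and its level in the low group was not bounded by that threshold. With all genes that had at least 1 read in the test, its log2 fold change was -4.58 (SE 0.740).

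ADIPOQ was also lower on the low plane, by less and with more overlap. Its TMM-normalized CPM in the high animals was 515 in the lowest, 3627 at the median and 7027 in the highest, with a mean of 3795 ± 2251 (SD, n = 10). The low animals ran from 75.1 through a median of 881 to 3257, with a mean of 1235 ± 1108 (SD, n = 9). All 9 low animals lay below the high median, but 7 of the 9 were within the range of the high animals. D64 (639) and D75 (515) were again the lowest of the high group, and D70 (3257) and D78 (2793) the highest of the low group. Reads were not limiting for this gene, with counts from 852 to 102530, and ADIPOQ took 0.335 ± 0.188% of all counted reads on the high plane (SD, n = 10) and 0.135 ± 0.121% on the low plane (SD, n = 9).

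**Figure D1:**
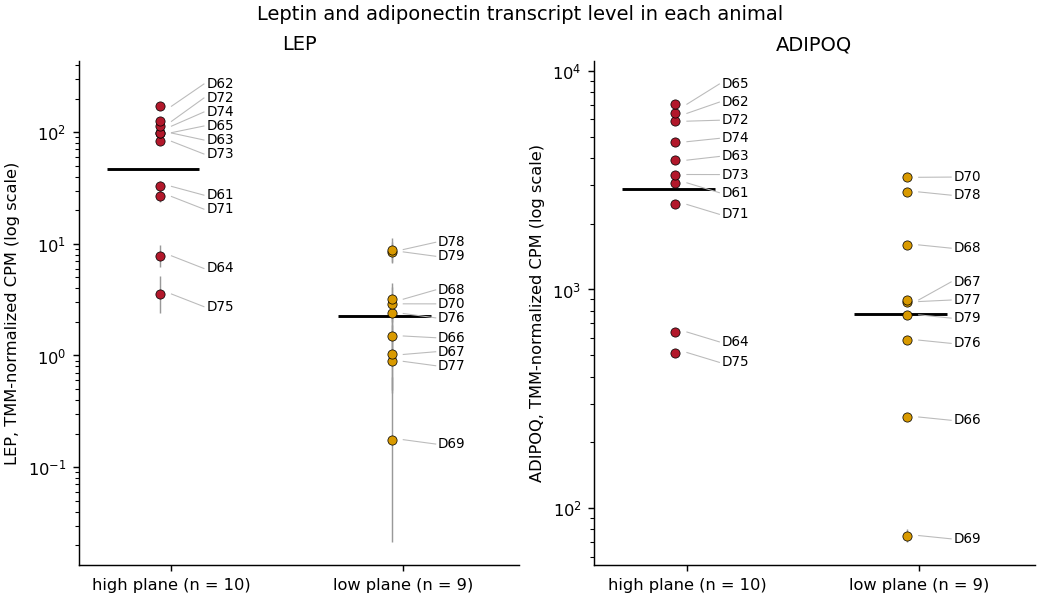
TMM-normalized CPM of LEP (left) and ADIPOQ (right) in each of 10 high and 9 low animals, on log scales, with 95% Poisson intervals of the reads as grey bars and the mean of the log2 levels as a black line. For LEP, 8 high animals sit above every low animal, whereas 7 low animals fall within the high range for ADIPOQ.

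The ADIPOQ log2 fold change was -1.62 (SE 0.566, edgeR quasi-likelihood F test, FDR 0.0303), or 3.07-fold with an approximate 95% interval from 1.42 to 6.63. In this test 203 genes had a more negative log2 fold change and 3168 a smaller p-value. The exact permutation test on the mean log2 level gave a difference of -1.90 (SE 0.701, p = 0.0131). Both genes, 2 of 2, passed an FDR below 0.05 with a change above 2-fold and were lower in the low animals. Of the 10064 genes tested, 7.26% passed both thresholds, 5.36% being lower and 1.91% higher on the low plane. The FDR alone was passed by 37.2% of the genes, and 18.5% of the genes passed it and were lower on the low plane. The log2 fold changes of the genes tested had a median of 0.02.

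The ADIPOQ call was close to its threshold. When log2 library size entered the model the log2 fold change was -1.19 (SE 0.754, edgeR FDR 0.273), and leaving out D62, D65, D72 or D76 gave -1.51, -1.48, -1.53 and -1.54 with an FDR between 0.0506 and 0.0551. Without D64 and D75 it was -1.90 (SE 0.510, FDR 0.00666), and without D64, D75 and D78 it was -2.16 (SE 0.515, FDR 0.00310). LEP kept its call in each of these fits, with a log2 fold change of -4.17 (SE 0.887, FDR 0.00436) when library size was in the model.

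**Figure D2:**
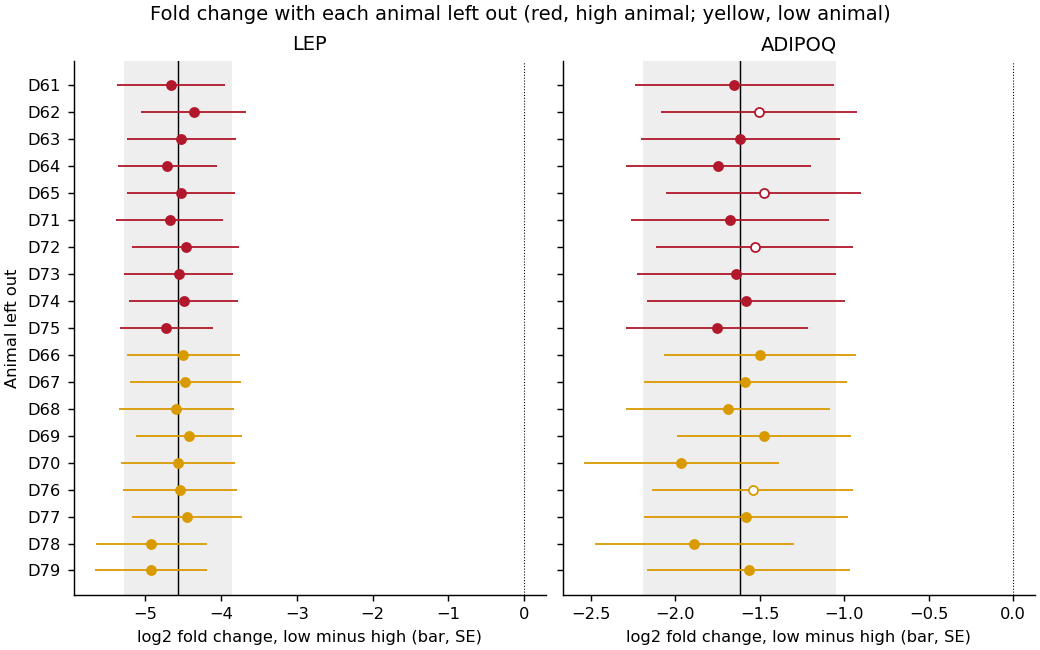
The log2 fold change (low minus high, with its SE as a bar) of LEP (left) and ADIPOQ (right) when the animal named on the axis was left out; the black line and grey band are the value and SE with all 19 animals, and open circles mark fits in which the gene did not pass an FDR below 0.05. LEP stayed between -4.92 and -4.36 and passed in all 19 fits, and ADIPOQ stayed between -1.97 and -1.47 and passed in 15.

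**Figure D3:**
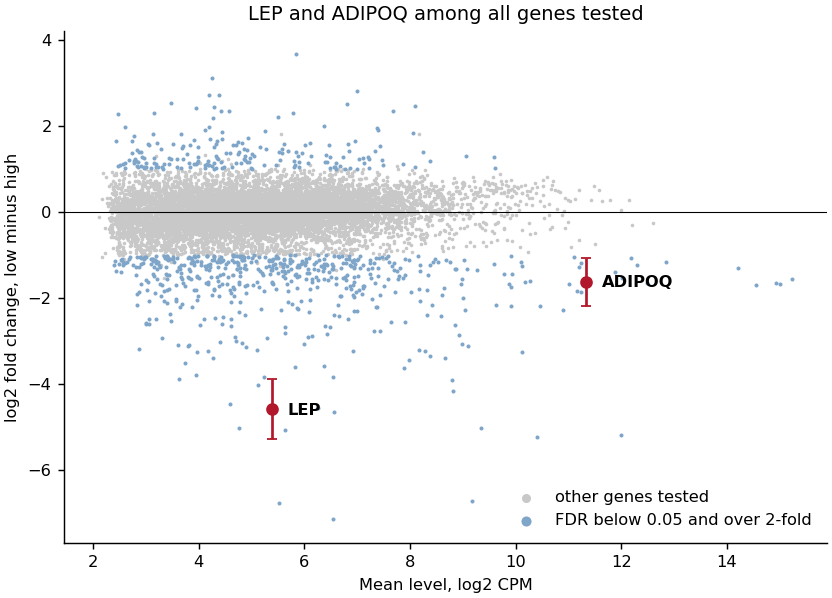
The log2 fold change (low minus high) of the 10064 genes tested against their mean level in log2 CPM, with LEP and ADIPOQ in red (bars, SE) and the 731 genes past an FDR below 0.05 and a 2-fold change in blue. LEP lies at -4.58 near the lower edge of the cloud, with 9 genes below it, and ADIPOQ at -1.62 with 203 below it.

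The 2 genes did not fall to the same extent. Dividing LEP reads by ADIPOQ reads of the same library removes library size and its scaling, and since transcript lengths were not used here the ratio is of reads, not of molecules. The high animals had 0.690 LEP reads per 100 ADIPOQ reads at the lowest, 1.77 at the median and 2.68 at the highest. In the low animals the corresponding values were 0.0891, 0.235 and 1.11. Of the low animals, 8 of 9 lay below every high animal. The exception was D79 at 1.11, which lay above D75 (0.690), D61 (1.06) and D71 (1.09) of the high group.

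The log2 ratio had a mean of -5.95 ± 0.677 on the high plane (SD, n = 10) and of -8.58 ± 1.21 on the low plane (SD, n = 9). Their difference was -2.62 (SE 0.458), a 6.16-fold lower ratio on the low plane (exact permutation test of the mean log2 ratio, two-sided, p = 5.41e-05). Leaving out each animal in turn kept it between -2.88 and -2.43, with exact permutation p-values up to 0.000165. Of the high animals with the least LEP and ADIPOQ, D75 had the lowest ratio of its group (0.690) and D64 (1.22) lay above D61 and D71. Without D64 and D75 the difference was -2.82 (exact permutation p = 0.000165).

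**Figure D4:**
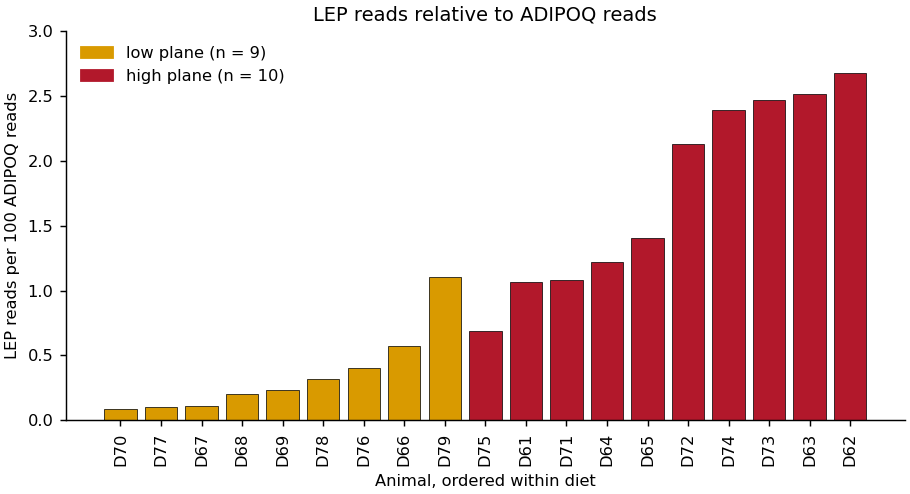
LEP reads per 100 ADIPOQ reads in each animal, ordered within diet, with low animals in yellow and high animals in red. The ratio is below 0.6 in 8 of the 9 low animals and at or above 0.690 in all 10 high animals, with low animal D79 at 1.11.

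Within the high animals the levels of the 2 genes were correlated. Pearson's r between their log2 levels was 0.97 (permutation p = 3.00e-05) and Spearman's rho was 0.93 (permutation p = 0.000290, n = 10), or 0.000180 and 0.00174 after Benjamini-Hochberg adjustment over 6 correlations. D64 and D75 were the animals farthest from the median LEP, and without them r was 0.85 (exact permutation p = 0.00308, n = 8). Within the low animals r was 0.68 (exact permutation p = 0.0406, n = 9) and rho 0.57 (exact permutation p = 0.121), which did not pass after adjustment (0.0610 and 0.181). Without D69 and D78, the low animals farthest from the median LEP, r was 0.21 (exact permutation p = 0.651, n = 7). Leaving out the extremes narrows the range of LEP, which by itself can lower r. LEP also rested on 2 to 84 reads in the low animals, against 29 to 1820 in the high animals. Counting error at few reads can lower r as well, so the smaller low r need not mean a looser relation. The correlations of the 2 diets were not tested against each other, and no r of the uncentred levels was taken over all 19 animals because the diets form clusters.

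The correlation with log2 library size within the high animals was r = 0.69 for LEP and r = 0.71 for ADIPOQ (permutation p = 0.0289 and 0.0237, n = 10), and neither passed after adjustment (0.0578 each). Spearman's rho was 0.60 and 0.67 (permutation p = 0.0742 and 0.0380, adjusted 0.148 and 0.114). Without D65 and D72, the largest libraries, r was 0.72 and 0.65 (exact permutation p = 0.0430 and 0.0858, n = 8). Within the low animals r was -0.44 and -0.22 and rho -0.47 and -0.27 (exact permutation p = 0.232 and 0.565 for r, 0.213 and 0.493 for rho, n = 9). Without D76 and D78 the low values of r were -0.30 and 0.10 (exact permutation p = 0.516 and 0.825, n = 7). With all libraries thinned once to the smallest, the log2 fold change was -4.60 (SE 0.700, edgeR FDR 0.000141) for LEP. For ADIPOQ it was -1.62 (SE 0.567, edgeR FDR 0.0311), so both kept their call. Thinning makes the read totals equal and does not adjust the levels for library size. The part of library size in the diet difference was not tested beyond this and the fits with library size in the model.

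Animals of different diets could be set side by side at a similar ADIPOQ level. Low animal D70 and high animal D73 had ADIPOQ of 3257 and 3354 CPM, and LEP of 2.90 and 82.8 CPM. D78 and D61 had ADIPOQ of 2793 and 3073, with LEP of 8.89 and 32.7. At the lower end, D76 and D64 had ADIPOQ of 587 and 639, with LEP of 2.38 and 7.81. Of the 7 low animals within the ADIPOQ range of the high group, 6 had less LEP than the high animal nearest in ADIPOQ, and the exception was D79 (LEP 8.47 beside 7.81 in D64). These 7 comparisons draw on only 4 high animals, D64 being the partner in 4 of them, and partners differed by up to 1.53-fold in ADIPOQ.

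With the log2 ADIPOQ level in the model, the LEP log2 fold change was -2.36 (SE 0.555, edgeR quasi-likelihood F test, FDR 0.00799). With the log2 LEP level in the model, that of ADIPOQ turned to 1.56 (SE 0.671, FDR 0.221) and did not pass. These fits were chosen after the values had been seen. Each takes the same relation between the genes in both diets, and the level entered itself differed between the diets. Only 2 of the 9 low animals lay within the LEP range of the high group. The ADIPOQ value therefore rests on extrapolation and does not give the diet difference at equal LEP.

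**Figure D5:**
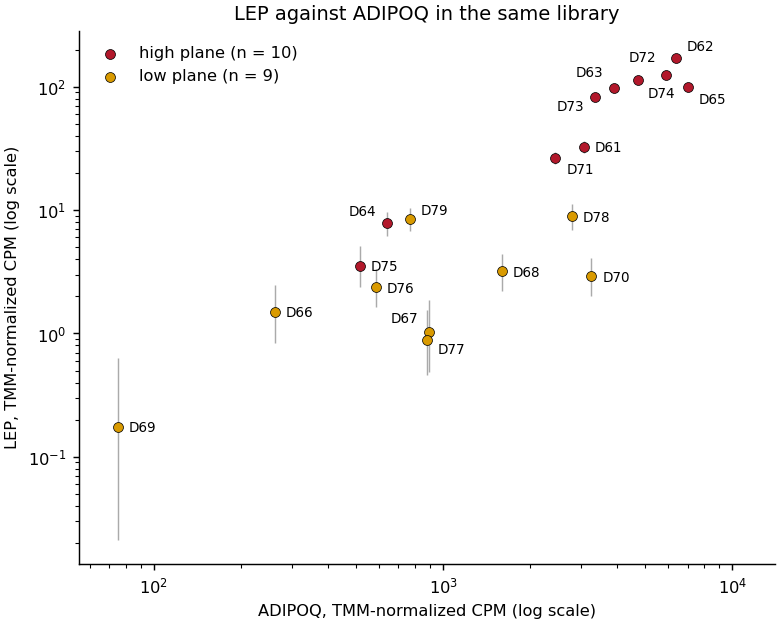
LEP against ADIPOQ, both in TMM-normalized CPM on log scales, with 1 point per animal (red, high; yellow, low) and 95% Poisson intervals of the LEP reads as grey bars. The high animals lie along a line from D75 to D62, and at similar ADIPOQ the low animals D70 and D78 lie below the high animals D73 and D61.

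Spread between animals was wide for both genes. The pooled SD of the log2 level within diets was 1.57 for LEP and 1.505 for ADIPOQ, against a median of 0.32 over all genes tested, and larger than that of 99.7% and 99.6% of them. LEP spanned 48.1-fold among the high animals and 50.5-fold among the low animals, and ADIPOQ 13.6-fold and 43.4-fold. Both low ranges rest on D69, and without it the low animals spanned 10.04-fold for LEP and 12.5-fold for ADIPOQ. The SD of LEP was 1.82 in the high and 1.24 in the low group, and that of ADIPOQ 1.32 and 1.69. The 0.5 CPM added before logs were taken lowers the low SD of LEP, since 2 low animals were under 1 CPM. The smaller low SD therefore need not mean that LEP varied less on the low plane. Much of the high spread came from D64 and D75, since without them the high SD was 0.936 for LEP and 0.547 for ADIPOQ. Without D69, which had the least of both genes, the low SD was 1.05 for LEP and 1.20 for ADIPOQ.

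Genes with the pattern most like each adipokine were found by Pearson's r of log2 levels over the 19 animals after the mean of each diet was subtracted, as a description without a test, since all points share library and scaling. Closest to LEP was ENSBTAG00000022027, with r = 0.95. Its level was 71.7 ± 39.7 CPM on the high plane (SD, n = 10) and 24.8 ± 13.96 on the low plane (SD, n = 9). The log2 fold change was -1.54 (SE 0.374, edgeR FDR 0.00355). Closest to ADIPOQ was ENSBTAG00000015690, with r = 0.98, at 289.6 ± 195 CPM on the high plane (SD, n = 10) and 42.8 ± 44.2 on the low plane (SD, n = 9). Its log2 fold change was -2.76 (SE 0.656, edgeR FDR 0.00304). By the same measure LEP and ADIPOQ had r = 0.80 with each other. Without D64, D75 and D69, ENSBTAG00000022027 had r = 0.88 with LEP and was only the 9th closest gene, whereas ENSBTAG00000015690 had r = 0.97 with ADIPOQ and was still the closest.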

How the data were processed

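Single-end reads were aligned by the authors to UMD3.1, the bovine assembly, with STAR. Uniquely mapped reads were counted per Ensembl gene with HTSeq, and the deposited values are these raw counts, neither normalized nor filtered. Diet was taken from the sample labels. No pair of libraries within a diet differed by as little as sampling noise (smallest chi-square per degree of freedom 25.2). The genes tested (10064) had 5 CPM or more in 9 or more libraries, and 5 CPM is 38.3 to 88.5 reads. The quasi-likelihood F test of edgeR 4.0.16 (R 4.3.3, TMM, robust dispersions, diet as the only term, Benjamini-Hochberg over all genes tested) was used, with the SE taken as the absolute log2 fold change over the square root of F. Log2 levels used a pseudocount of 0.5 CPM, and the log2 ratio 0.5 reads. Single values were compared by two-sided exact permutation tests. For correlations, 100000 permutations were drawn at n = 10 and all pairings at n = 9 or fewer. Scripts were tested on simulated data. Alternatives were DESeq2 1.42.0, limma 3.58.1 (voom), other scalings and filters, thinning and leaving out animals.

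The genes, lists and tests were chosen with earlier results of these data known. The rule for named genes was LEP and ADIPOQ, members of planned pathway and cell marker lists, and the 6 genes with a symbol most like each adipokine. The gene table used here pairs none of the files' identifiers with a symbol, so the lists were not analysed here, and the closest gene to each adipokine is given by identifier, a choice made after its values were seen. The table with symbols is on another genome build than the files, so no coordinates or sequences are given. The authors' supplementary table, which gives symbols and log fold changes without identifiers, was not used. Sequencing lane and the blocks by which calves were assigned to diets were not used here, and their part in the results was not tested.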

Additional observations from a re-analysis of the deposited data

How the results depend on the processing

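A call was an FDR below 0.05 with a change above 2-fold, or p below 0.05 where a single value was tested by permutation. LEP kept its direction and its call in all 16 alternative settings, from -5.21 to -2.36, and in all 19 fits that left out 1 animal. The ratio kept both in its 6 settings, from -2.86 to -2.27. ADIPOQ did so in 13 of 16 settings. The exceptions were testing all genes with at least 1 read (-1.64, FDR 0.0540), log2 library size in the model (-1.19, FDR 0.273) and, reversed in sign, log2 LEP level in the model (1.56, FDR 0.221, added after the data were seen). The fits with the level of the other adipokine in the model answer a different question from the other settings. The -2.36 for LEP came from such a fit, and without it the LEP settings ran from -5.21 to -4.12. The -4.12 is the difference of mean log2 levels, which the added 0.5 CPM makes smaller in size. In the edgeR test with all genes the ADIPOQ log2 fold change was near that of 10064 genes, and the number of genes adjusted over was 18679. The cause of the other changes was not tested. Leaving out each animal in turn moved ADIPOQ between -1.97 and -1.47, with an FDR up to 0.0551 and the call lost without D62, D65, D72 or D76. Total counts only gave -1.31 (FDR 0.0477), with the median of all genes moved from 0.02 to 0.30.

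The correlation of LEP with ADIPOQ within the low animals lost its unadjusted call as Spearman's rho (0.567), without D69 and D78 (0.214) and without D78 (0.602, as in the setting without D64, D75 and D78). With each low animal left out in turn it ran from 0.434 (without D69) to 0.801, beside 0.684 with all low animals. The call was also lost without D66 (0.685), D68 (0.678) or D76 (0.689), where r hardly moved but fewer animals were left. The high correlation kept its call in all 5 settings and all 10 fits that left out 1 animal. The SD of the low over that of the high animals was 0.683 for LEP and 1.28 for ADIPOQ, and without D64, D75 and D78 it was 1.20 and 3.01. The LEP ratios are lowered by the 0.5 CPM added before logs were taken, since 2 low animals were under 1 CPM. No other pseudocount was tried for the spread. List counts were not run, because identifiers had no symbols. No paired analysis was run, because each animal had a single diet and the labels do not give the blocks by which calves were assigned.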

Other observations

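Of the other 10062 genes tested, 290 (2.88%) had a within-diet r above 0.8 with LEP and 126 (1.25%) with ADIPOQ over the 19 animals. The 86 genes above 0.8 with both were 29.7% of the first set and 68.3% of the second. An r below -0.8 was found for 8 genes with LEP and 2 genes with ADIPOQ. ADIPOQ itself had r = 0.80 with LEP, and 284 genes were closer to LEP than ADIPOQ was, whereas 120 genes were closer to ADIPOQ than LEP was. These values are a description, the animals D64, D75 and D69 weigh on them, and the 0.8 was chosen after the data were seen.

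In 10 sets of values (the log2 levels of LEP and ADIPOQ, their log2 ratio, log2 library size and the TMM factor, in each diet), Dixon's test singled out 0 animals, where 0.5 would be expected by chance. The largest gap over range was 0.330. D64 and D75, the lowest high animals in both genes, lie close to each other, and this test is blind to such pairs.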
